A study of Homo sapiens with 6 samples.

Results

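The cytosolic ribosomal protein genes encode the proteins of the large (RPL) and small (RPS) subunit of the cytosolic ribosome. Members were the autosomal protein-coding genes with the symbols RPL or RPS followed by a number and optionally A, together with RPLP0, RPLP1, RPLP2 and RPSA, and without S6 kinases or genes whose symbol marks them as a paralog (a final L, or L and a number). This gave 73 of 19962 protein-coding genes on chromosomes 1 to 22 and X, 43 of the large and 30 of the small subunit. They lay on 20 chromosomes, 12 of them on chromosome 19.

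Accessible chromatin was profiled by ATAC-seq, in which the Tn5 transposase tags DNA that nucleosomes leave exposed. The cells were HLF, an established line of human liver cancer. One group of 3 libraries came from cells given DMSO, the vehicle, and the other group of 3 from cells given 5 μM SNDX-5613 (revumenib), a small molecule that keeps menin from binding MLL1. The labels give 24 h of treatment and 1 batch for every library, while the study's text gives a longer time for this assay, so the duration is uncertain. Per the study's text a replicate was a dish of cells that was divided between the treatments, while no label ties a replicate number to a dish, and p-values measure the spread between these libraries.

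A ribosome needs 1 copy of nearly every one of these proteins, and a growing cell transcribes their genes at high and coordinated rates. Most of their promoters are known for a start site inside a run of pyrimidines. The run becomes the start of the mRNA as the 5′ terminal oligopyrimidine (TOP) motif, through which mTOR and LARP1 control translation. Because the proteins are needed in nearly all cells, their promoters are usually described as housekeeping promoters.

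Sequences around the start sites are shown first because the pyrimidine run is what these promoters shared most. The RefSeq promoter table (GRCh38.p14) held 58 of the 73 genes, and for 56 its start was also that of the canonical transcript. Genes not in the table included RPL23, RPL23A, RPL30, RPL37, RPL5, RPL7, RPL8, RPS15A, RPS2 and RPS20. Each line below gives 80 bases before the first transcribed base and 20 from it onwards, 5′ to 3′ on the gene's strand, with the pyrimidine run that covers the start in capitals. These genes were chosen as those with high promoter accessibility (RPS13, RPL11), a named role (RPLP0, RPSA, RPS6, RPS19), the longest run (RPL7A) or groups of libraries that did not overlap (RPL31, RPL37A).
RPS13 (chr11:17077648-17077747, minus strand): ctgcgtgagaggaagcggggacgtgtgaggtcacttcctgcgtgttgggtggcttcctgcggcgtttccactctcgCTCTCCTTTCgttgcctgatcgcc
RPL11 (chr1:23691726-23691825, plus strand): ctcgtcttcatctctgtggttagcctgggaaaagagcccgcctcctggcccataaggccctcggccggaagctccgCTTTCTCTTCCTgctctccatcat
RPLP0 (chr12:120201092-120201191, minus strand): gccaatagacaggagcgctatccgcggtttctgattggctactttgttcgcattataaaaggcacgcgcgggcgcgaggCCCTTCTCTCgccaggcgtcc
RPSA (chr3:39406640-39406739, plus strand): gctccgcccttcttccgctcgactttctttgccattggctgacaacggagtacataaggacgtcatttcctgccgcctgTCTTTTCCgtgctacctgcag
RPS6 (chr9:19380217-19380316, minus strand): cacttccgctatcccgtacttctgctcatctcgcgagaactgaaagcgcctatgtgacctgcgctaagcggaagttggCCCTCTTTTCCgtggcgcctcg
RPS19 (chr19:41860175-41860274, plus strand): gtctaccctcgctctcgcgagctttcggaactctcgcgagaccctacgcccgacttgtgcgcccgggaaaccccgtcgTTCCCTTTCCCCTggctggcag
RPL7A (chr9:133348138-133348237, plus strand): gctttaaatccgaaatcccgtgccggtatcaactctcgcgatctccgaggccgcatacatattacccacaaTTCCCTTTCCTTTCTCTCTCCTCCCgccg
RPL31 (chr2:101002209-101002308, plus strand): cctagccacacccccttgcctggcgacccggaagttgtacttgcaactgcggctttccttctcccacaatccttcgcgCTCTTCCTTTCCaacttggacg
RPL37A (chr2:216498764-216498863, plus strand): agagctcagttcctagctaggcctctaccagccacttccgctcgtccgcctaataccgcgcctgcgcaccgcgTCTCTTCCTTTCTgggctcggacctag

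The first transcribed base was C in 46 of 56 genes (82.1%), against 10.5% of the 14545 protein-coding promoters read in the same way. A run of at least 8 pyrimidines covered the start in 41 of 56 (73.2%), against 4.59% of all promoters, and a run of at least 5 in 45 (80.4% against 7.89%). The median run was 11 bases in the ribosomal protein genes and 0 over all promoters. RPL7A had the longest, 25 bases. The plot of run lengths shows this separation.

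**Figure D1:**
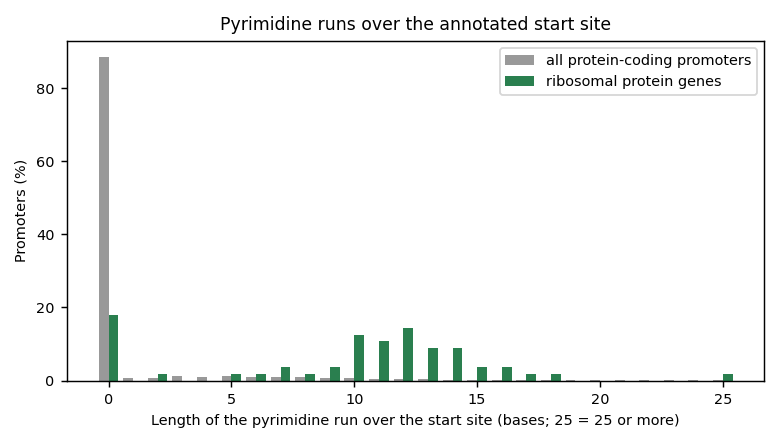
Length in bases of the unbroken C and T run that covers the annotated start site (x axis) against the percentage of promoters (y axis), for 56 ribosomal protein genes (green) and 14545 protein-coding promoters (grey). Most ribosomal protein genes lie at 10 to 14 bases, while 88.5% of all promoters have no such run.

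In 11 of the 56 genes the run over the annotated start was shorter than 5 bases: RPL10A, RPL15, RPL17, RPL19, RPL27, RPL32, RPL4, RPL9, RPS15, RPS26 and RPS28. All 11 held a run of at least 8 pyrimidines within 30 bases of that start, against 17.7% of the 13397 promoters whose run over the start was also shorter than 5 bases or missing. RPL9, RPL27, RPL4 and RPL19 are shown because they included some of the most and least accessible promoters of the family (the first pair and the last). They have no capitals, since no run covers the start.
RPL9 (chr4:39458903-39459002, minus strand): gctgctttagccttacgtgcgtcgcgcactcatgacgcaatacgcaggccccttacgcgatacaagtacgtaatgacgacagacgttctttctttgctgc
RPL27 (chr17:42998339-42998438, plus strand): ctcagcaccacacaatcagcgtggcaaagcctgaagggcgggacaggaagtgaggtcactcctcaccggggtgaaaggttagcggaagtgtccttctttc
RPL4 (chr15:66504836-66504935, minus strand): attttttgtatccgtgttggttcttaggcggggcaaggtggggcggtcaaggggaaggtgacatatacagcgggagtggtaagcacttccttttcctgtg
RPL19 (chr17:39200203-39200302, plus strand): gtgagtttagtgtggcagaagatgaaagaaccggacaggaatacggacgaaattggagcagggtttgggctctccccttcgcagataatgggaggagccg

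Other short sequences were less shared. They were searched on both strands from 250 bases before to 50 after the start, and a base could count for more than 1 of them. CCGGAAG, a core recognised by ETS factors such as GABPA, was in 19 of 56 windows (33.9%), against 15.0% of all windows and 22.04% of windows of promoters with a peak in all 6 libraries. AGATGGC, a YY1 core, was in 7 (12.5%, against 6.35% and 8.08%). CCAAT, the core bound by NF-Y, was in 19 (33.9%, against 37.0% and 39.1%). GGGCGG, the GC box of SP factors, was in 31 (55.4%, against 62.6% and 76.6%), and TATAAA in 5 (8.93%, against 9.48% and 4.52%). The median GC content was 59.3%, against 64.0% over all windows and 66.3% over accessible ones. A match is a description of letters and not a measured binding site.

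Longer promoters are shown for genes whose accessibility is described below, from 250 bases before the start to 20 from it onwards. Capitals mark the ETS and NF-Y cores named above, in either orientation. RPL31 held 1 ETS core, RPS14 held ETS cores in reverse, RPLP0 held the NF-Y core in both orientations, and RPL13A held both kinds of core. The YY1 core counted for RPL13A lay past the last base shown.
RPL31 (chr2:101002039-101002308, plus strand): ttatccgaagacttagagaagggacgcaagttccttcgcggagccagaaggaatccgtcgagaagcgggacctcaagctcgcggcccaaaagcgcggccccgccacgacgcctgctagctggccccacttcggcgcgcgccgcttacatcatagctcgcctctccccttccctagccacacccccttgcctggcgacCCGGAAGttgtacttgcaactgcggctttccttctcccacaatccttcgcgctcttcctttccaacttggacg
RPS14 (chr5:150449720-150449989, minus strand): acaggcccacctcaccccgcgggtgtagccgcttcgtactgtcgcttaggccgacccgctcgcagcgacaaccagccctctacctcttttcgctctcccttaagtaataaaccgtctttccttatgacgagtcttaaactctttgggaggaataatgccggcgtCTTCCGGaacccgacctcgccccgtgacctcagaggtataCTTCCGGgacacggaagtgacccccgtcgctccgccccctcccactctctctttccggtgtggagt
RPLP0 (chr12:120201092-120201361, minus strand): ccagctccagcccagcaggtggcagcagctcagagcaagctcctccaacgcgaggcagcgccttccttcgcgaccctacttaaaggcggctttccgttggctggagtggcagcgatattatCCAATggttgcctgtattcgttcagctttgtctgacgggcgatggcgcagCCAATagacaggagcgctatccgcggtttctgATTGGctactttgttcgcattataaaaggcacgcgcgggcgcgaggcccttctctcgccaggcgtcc
RPL13A (chr19:49487358-49487627, plus strand): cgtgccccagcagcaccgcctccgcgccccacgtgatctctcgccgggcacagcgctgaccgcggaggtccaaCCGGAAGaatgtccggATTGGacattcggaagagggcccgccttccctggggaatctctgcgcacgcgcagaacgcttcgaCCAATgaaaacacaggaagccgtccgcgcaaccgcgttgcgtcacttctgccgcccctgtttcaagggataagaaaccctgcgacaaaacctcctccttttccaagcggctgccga

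Depth was not given as reads. Each peak's fold enrichment and p value were solved for the pileup, the whole number of sequenced tags stacked over the summit, and its background, which succeeded for 100% of summits in each library and for at most 2.23% once p values were exchanged at random among summits. The commonest background, a relative measure of depth, was 0.997 to 1.51 in 5 libraries but only 0.211 in the third SNDX-5613 library. This replicate 3 was therefore far shallower, at 16.2% of the median of the other 5, and held 47696 summits against 124333 to 148782. Marker promoters were read for the cell identity: 0 of 8 hepatocyte genes (such as ALB and HNF4A) had a peak in all 6 libraries and 7 had none in any, 6 of 6 mesenchymal genes (such as VIM and ZEB1) had one in all 6, and 4 of 4 blood genes had none. Of the 8 hepatocyte promoters read, 0 were thus accessible in every library, and SERPINA1 had a peak in 2 libraries.

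All 73 promoters were accessible with and without the inhibitor. A peak summit lay within 1 kb of the start site of 73 of 73 genes in each of the 6 libraries, where 58.9% of all protein-coding genes had one in all 6. The count was also 73 in the shallow library alone, with only the 47696 strongest summits of each library, within 500 bp of the start, and with a stricter threshold of −log10 q of at least 3. Both of the authors' consensus sets held a region at all 73, where the DMSO set of 87417 regions covered 67.6% and the SNDX-5613 set of 86725 regions 68.9% of all genes. With the outermost 5′ end of each gene as its start in place of the canonical transcript, 69 had a peak in all 6 libraries. RPL22 and RPL4 then had one in 0 libraries, RPL36 in 2 and RPL7 in 5.

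The members were mostly above the typical promoter in level. Pileups were scaled by each library's median ratio over 11751 promoters with a peak in all 6 libraries, and a promoter's level was the scaled pileup at its strongest summit. The median over the ribosomal protein genes was 141, 146 and 143 in DMSO replicates 1 to 3 and 142, 143 and 142 in SNDX-5613 replicates 1 to 3. Over all promoters tested the medians were 121, 120, 121, 119, 119 and 116. Averaged over the 6 libraries, the levels of the 73 genes ran from 76.5 to 237, with a median of 138 and quartiles of 120 and 185, and 56 of 73 were above the median of all promoters, 119. The levels across all promoters ran from 7.67 to 514, so the family covered neither end of the range. Before scaling, the median pileup of the family was 159 to 223 in the deeper libraries and 32 in SNDX-5613 replicate 3.

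**Figure D2:**
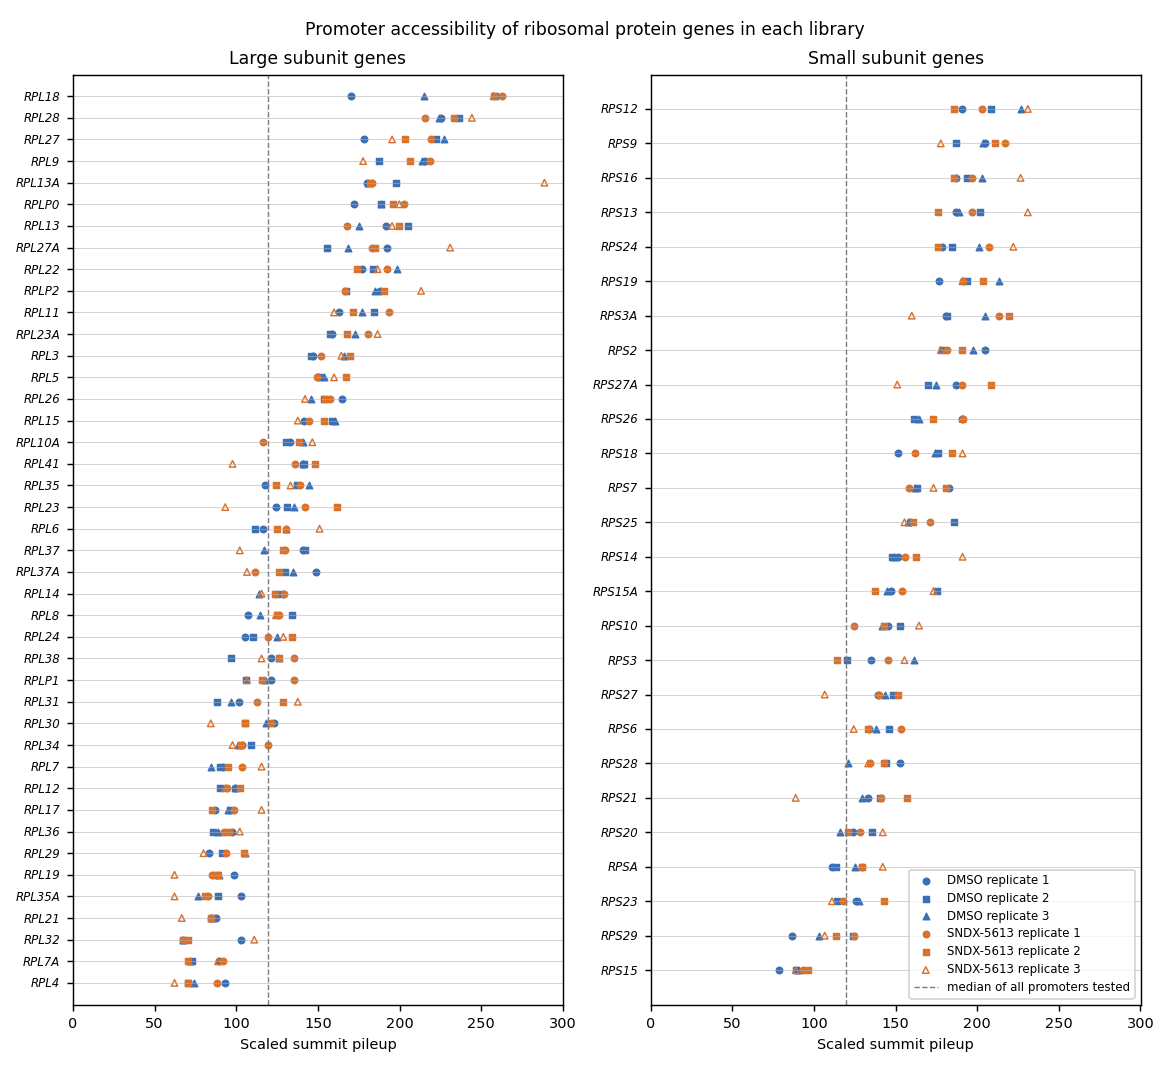
Scaled summit pileup (x axis) of 68 of the 73 ribosomal protein genes (y axis, ordered by mean within each panel) in 3 DMSO (blue) and 3 SNDX-5613 (orange) libraries. The dashed line is the median of all promoters tested, 119, and the open triangles are the shallow SNDX-5613 replicate 3, which is the farthest from the rest for several genes, among them RPL13A and RPL23.

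Each promoter was also ranked by −log10 p within its library among all protein-coding promoters with a peak there, where 100 is the strongest. This measure needs no scaling, but p is taken against the local background. The family's median rank percentile was 69.9, 74.1 and 72.6 with DMSO and 71.96, 73.8 and 66.1 with SNDX-5613, or 72.2 ± 2.13 and 70.6 ± 4.05 (SD, n = 3). The group means differed by less than the SD within either group. By mean rank over the 6 libraries the median was 70.0 for the family and 56.4 for all promoters with a peak in all 6.

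Small subunit genes ranked above large subunit genes in every library. The median rank percentile of the 30 small subunit genes was 78.1, 81.8 and 79.4 in DMSO and 81.0, 81.1 and 75.2 in SNDX-5613 libraries. For the 43 large subunit genes it was 59.0, 61.1 and 65.3 in DMSO and 68.4, 65.9 and 59.3 in SNDX-5613 libraries. The level showed the same order, with a median scaled pileup of 158 for the small and 127 for the large subunit. In the small subunit 28 of 30 genes were above the median of all promoters, and in the large subunit 28 of 43. The libraries share the same genes, so this is a description of the 2 gene groups without a test.

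The strongest promoters belonged to both subunits. RPS13, a small subunit protein, had the highest mean rank percentile, 94.8 ± 2.56 (SD, n = 6), followed by the large subunit genes RPL9 (93.6 ± 5.51), RPL27 (93.6 ± 5.47), RPL11 (93.2 ± 4.15) and RPL22 (92.7 ± 2.65). These 5 lay closer together than the spread of each over libraries. RPS13 had scaled pileups of 187, 202 and 189 in DMSO and 197, 176 and 231 in SNDX-5613 libraries. RPL11, which with RPL5 binds MDM2 when ribosome assembly is disturbed, had 163, 185 and 177 in DMSO and 194, 172 and 160 in SNDX-5613 libraries. In both genes the libraries of the groups overlapped. By scaled pileup the order differed, with RPL18 (237) and RPL28 (230) first.

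The weakest promoters were all of the large subunit. RPL19 had a mean rank percentile of 27.4 ± 8.57, RPL36 of 29.97 ± 2.12, RPL4 of 33.0 ± 7.98, RPL7A of 33.1 ± 5.51 and RPL41 of 33.3 ± 11.0 (SD, n = 6). These 5 means differed by less than the SD of RPL19, RPL4 or RPL41. RPL4, which lines the exit tunnel of the nascent chain, had the lowest scaled pileup, with 93.1, 70.7 and 74.4 in DMSO and 88.1, 70.7 and 62.2 in SNDX-5613 libraries. RPL41, the smallest ribosomal protein, ranked low by p but had scaled pileups of 141, 141 and 141 in DMSO and 136, 148 and 97.7 in SNDX-5613 libraries, above the median of all promoters in all but the shallow library. RPL7A combined the longest pyrimidine run with one of the lowest levels, 80.9 on average.

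Among the 56 genes with sequence, the 41 with a run of at least 8 pyrimidines over the start had a median scaled pileup of 153 and the 15 others 134. Their median rank percentiles were 76.8 and 62.0. Genes with CCGGAAG had a median rank percentile of 76.7 (19 genes) and those without it 70.0 (37 genes). Genes with CCAAT had 65.6 (19 genes) and those without it 76.7 (37 genes). For GGGCGG the medians were 76.8 with it (31 genes) and 66.2 without it (25 genes). For AGATGGC they were 76.8 (7 genes) and 70.0 (49 genes), and for TATAAA 76.8 (5 genes) and 70.0 (51 genes). These medians describe small groups of genes and were not tested.

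The summit sat just upstream of the start. The median position over the 73 genes was −80 bp from the start, against −72.5 bp over all promoters tested, and 70 of 73 had their median summit upstream of the start. RPL32 and RPL4 were among the exceptions, at 6.5 and 15 bp downstream. In each library 75.3% to 80.8% of the family had its summit within the 150 bp before the start, against 60.7% to 63.7% of all promoters. In the 50 bp bin centred 75 bp upstream the family had 53.4% of its summits and all promoters 29.1%.

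**Figure D3:**
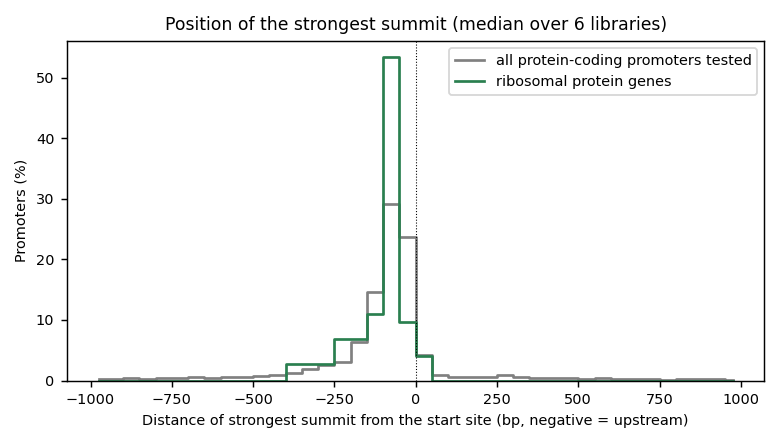
Distance in bp of the strongest summit from the start site (x axis, negative is upstream, median over 6 libraries) against the percentage of promoters (y axis), in 50 bp bins, for 73 ribosomal protein genes (green) and 11751 promoters tested (grey). The family's bin 50 to 100 bp upstream holds 53.4% of its genes, against 29.1% of all promoters.

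A few genes had their summit farther out. It lay at −390.5 bp in RPS27A, which encodes a fusion of ubiquitin and a small subunit protein, at −374.5 bp in RPLP2, −311.5 bp in RPL7, −300.5 bp in RPL23A, −283 bp in RPL35A and −269 bp in RPS19. The summit moved little between libraries: its range over the 6 libraries was at most 50 bp in 47 of 73 genes (64.4%, against 61.1% of all promoters), with a median of 37 bp against 39 bp. It was over 200 bp in 9 genes, with 446 bp in RPS19 and 435 bp in RPL4 the widest. The group medians did not separate, at −77.0 ± 2.00 bp in DMSO and −76.7 ± 3.21 bp in SNDX-5613 libraries (SD, n = 3). The peaks were 419.5 to 1619 bp wide, with a median of 716 bp.

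A neighbouring start was about as frequent at these promoters as at accessible promoters in general. The nearest other start, counting protein-coding and long noncoding RNA genes, was within 1 kb in 30 of 73 (41.1%, against 38.8% of accessible promoters), and in 27 of these it was on the opposite strand (37.0% against 31.8%). Tags over such a region cannot be assigned to either gene. The 27 genes with an opposite start nearby and the 46 others had median scaled pileups of 133 and 142, and median log2 differences with SNDX-5613 of 0.01 and 0.03. Within the gene bodies, 26 of 73 carried a small nucleolar RNA gene on the same strand (35.6%, against 1.70% of genes with an accessible promoter). There were 58 such RNAs in all, up to 5 in a gene, as in RPL4. These RNAs guide modification of ribosomal RNA and are released from introns of the host transcript.

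The treatment comparison asked whether menin inhibition changed accessibility at these promoters. None of them passed the threshold, but few promoters of any kind did, so this count is near the share of all promoters. Under limma on log2 scaled pileup, with Benjamini-Hochberg adjustment over 11751 promoters, 0 of 73 rose and 0 of 73 fell at an adjusted p under 0.05, where 1.44% of all promoters tested rose and 0.0766% fell (1.51% in either direction). At an unadjusted p under 0.05 there were 4 of 73, among them RPL31, RPL18 and RPL37A, against 11.4% of all promoters. The lowest adjusted p was 0.149 (limma, RPL31). These values come from mixtures of cells, so fewer cells with an open promoter and less opening per cell cannot be told apart.

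The differences were small. The median log2 difference, SNDX-5613 minus DMSO, was 0.02 over the 73 genes and −0.01 over all promoters, with a range of −0.26 to 0.40. It was above 0 in 42 genes, where 48.4% of all promoters were above 0, and below 0 in 31. Scaling by the genome-wide background moved the median of all promoters to −0.15 and that of the family to −0.12, with 11 genes above and 62 below 0, and scaling by sites away from promoters moved them to −0.10 and −0.08, with 19 above and 54 below. A scaling shifts every promoter by the same amount, so the gap between the medians is the same under all 3 by construction, and the family's direction around 0 followed the scaling. With the authors' fold as the measure the medians were 0.00 and 0.01. The median was 0.01 for the large and 0.03 for the small subunit. The SE of a single gene was 0.08 to 0.19, with a median of 0.11. The 95% interval lay within ±1 log2 unit in 73 of 73 genes and within ±0.5 in 68, and the outermost bounds were −0.57 and 0.65. With scaling over promoters, a change of 1 log2 unit in either direction was therefore outside the interval of every gene. That scaling removes a change shared by most promoters, so these intervals are relative to the typical promoter. Changes of the size of the SE were not detectable at this depth, and even the largest difference, 0.40 in RPL31, did not pass the adjusted threshold. A missing call alone thus does not exclude a change of that size.

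**Figure D4:**
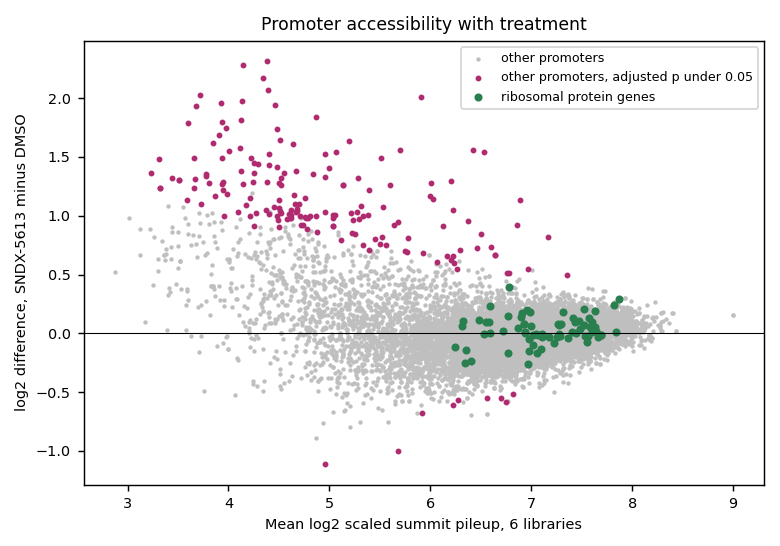
Mean log2 scaled summit pileup over 6 libraries (x axis) against the log2 difference, SNDX-5613 minus DMSO (y axis), for 11751 promoters: 73 ribosomal protein genes (green), other promoters with an adjusted p under 0.05 by limma (magenta) and the rest (grey). The ribosomal protein genes lie between −0.26 and 0.40, and most called promoters lie to their left, at lower levels.

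In 6 of 73 genes (8.22%) all SNDX-5613 libraries were above all DMSO libraries, and 9.01% of all promoters showed this. They included RPL31, RPL7, RPSA, RPS14 and RPLP0. In 1 of 73 (1.37%), RPL37A, all were below, against 7.63% of all promoters. With 3 against 3 libraries an exact permutation test of 1 gene cannot go below 0.1. The count of higher genes is near the background share. Leaving out 1 library at a time, which lets more promoters separate, gave 10 to 12 higher and 2 to 5 lower genes, where at most 14.8% of all promoters were higher and at most 14.2% lower. Without the shallow SNDX-5613 replicate 3 there were 11 higher (15.1%, against 13.9% of all promoters) and 2 lower (2.74%, against 13.4%). The count of higher genes was thus again near the background share. Scaled by the genome-wide background, 1 gene was higher and 7 were lower, against 2.61% and 16.7% of all promoters, and scaled by sites away from promoters 1 was higher and 4 were lower, against 4.43% and 19.04%.

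RPL31, a protein near the exit of the large subunit tunnel, starts at position 101002289 of chromosome 2 on the plus strand, and a long noncoding RNA starts 45 bp upstream on the other strand. Its scaled pileup was 102, 88.4 and 96.9 in DMSO and 112, 129 and 138 in SNDX-5613 libraries. All SNDX-5613 libraries were higher, the nearest values of the groups being 112 and 102. The means were 95.7 ± 6.85 and 126 ± 12.8 (SD, n = 3), a log2 difference of 0.40 ± 0.12 (SE) with a limma adjusted p of 0.149. With array weights, which give the shallow library less weight, the difference was 0.38 with a limma adjusted p of 0.0463. This was the only setting in which a member passed, and 280 of all 11751 promoters passed as higher there. Over all alternatives the limma adjusted p of RPL31 was 0.0463 to 0.677 and its difference 0.26 to 0.48. Without SNDX-5613 replicate 3 the difference was 0.33 with a limma adjusted p of 0.176.

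RPL18, a large subunit protein, had the highest mean level of the family. Its scaled pileup was 170, 259 and 215 in DMSO and 263, 258 and 258 in SNDX-5613 libraries, so the SNDX-5613 libraries were tight and the DMSO libraries spread, with 1 of them inside the treated range. The log2 difference was 0.29 ± 0.11 (SE) with a limma adjusted p of 0.266. It was 0.14 without DMSO replicate 1, 0.44 without DMSO replicate 2 and −0.28 when all summits in the window were summed. Without the shallow SNDX-5613 replicate 3 it was 0.29 with a limma adjusted p of 0.0813. Over all alternatives the limma adjusted p of RPL18 was 0.0518 (without DMSO replicate 2) to 0.816 (without DMSO replicate 1).

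RPL13A, a large subunit protein that also acts outside the ribosome in interferon-γ-induced translational silencing, had 180, 198 and 181 in DMSO and 183, 182 and 289 in SNDX-5613 libraries. Only the shallow library stood out there, and the log2 difference was 0.19 ± 0.13 (SE).

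RPL37A, a zinc-binding protein of the large subunit, was the gene with lower values. Its scaled pileup was 149, 130 and 135 in DMSO and 112, 126 and 107 in SNDX-5613 libraries. All treated libraries were lower, the nearest values being 126 and 130. The log2 difference was −0.26 ± 0.12 (SE) with a limma adjusted p of 0.383, and it ranged from −0.45 to −0.20 over all alternative settings. Its start at position 216498844 of chromosome 2 faces that of RPL37A-DT, a divergent noncoding transcript, 83 bp upstream.

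RPL7, a large subunit protein, had 92.2, 90.4 and 84.6 in DMSO and 103, 95.0 and 116 in SNDX-5613 libraries, with a log2 difference of 0.23 ± 0.13 (SE). RPSA, the small subunit protein also known as the laminin receptor precursor, had 111, 113 and 125 in DMSO and 129, 130 and 142 in SNDX-5613 libraries, a difference of 0.20 ± 0.11. RPS14, whose reduced dose is linked to the anaemia of the 5q deletion syndrome, had 152, 148 and 149 in DMSO and 156, 163 and 191 in SNDX-5613 libraries, a difference of 0.18 ± 0.10. In each of the 3 genes the groups were separate but the shallow library was the highest, and the limma adjusted p was 0.505, 0.505 and 0.526. Without that library the differences were 0.15 for RPL7, 0.15 for RPSA and 0.09 for RPS14, and with scaling by the genome-wide background 0.09, 0.06 and 0.04.

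**Figure D5:**
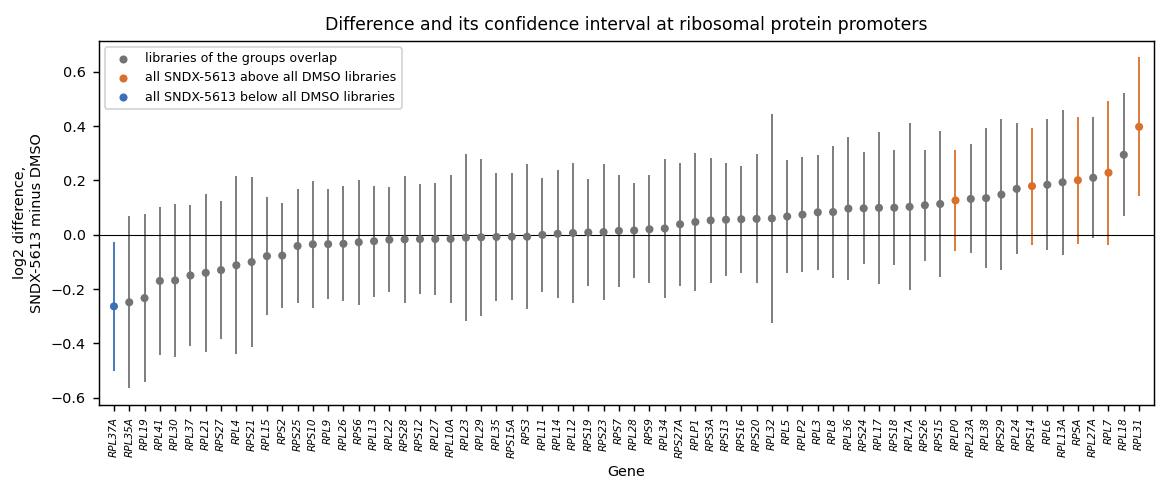
Log2 difference in scaled summit pileup, SNDX-5613 minus DMSO (y axis), with its 95% interval from limma for 68 of the 73 ribosomal protein genes (x axis, ordered by size). Orange marks the 5 genes plotted with all SNDX-5613 libraries above all DMSO libraries, blue the 1 with all below and grey the rest. The intervals of RPL31, RPL18 and RPL37A leave out 0 and all others plotted include it.

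The stalk proteins RPLP0, RPLP1 and RPLP2 recruit elongation factors to the ribosome. RPLP0 had 172, 189 and 188 in DMSO and 203, 196 and 200 in SNDX-5613 libraries, a log2 difference of 0.13 ± 0.09 (SE) with a limma adjusted p of 0.644. The nearest values of the groups were 196 and 189, and the difference turned to −0.01 when libraries were scaled by the genome-wide background. RPLP1 (0.05 ± 0.12) and RPLP2 (0.07 ± 0.10) had overlapping groups.

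Proteins that link ribosome assembly to p53 bind MDM2 or, for RPL26, the p53 mRNA. RPL5 had 150, 151 and 154 in DMSO and 150, 167 and 160 in SNDX-5613 libraries, a log2 difference of 0.07 ± 0.10 (SE). For RPL11 the difference was −0.00 ± 0.10, for RPL23 −0.01 ± 0.15 and for RPL26 −0.03 ± 0.10. RPL23 varied most by library: it had 124, 131 and 135 in DMSO and 142, 162 and 93.3 in SNDX-5613 libraries, the last being the shallow one. The groups of all 4 overlapped.

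Genes mutated in Diamond-Blackfan anaemia, an inherited failure of red cell production, include RPS19, RPS26 and RPL35A besides RPL5, RPL11 and RPL26. RPS19, the most often mutated, had 176, 194 and 214 in DMSO and 191, 203 and 191 in SNDX-5613 libraries, a log2 difference of 0.01 ± 0.09 (SE). The difference was 0.11 ± 0.10 for RPS26 and −0.25 ± 0.15 for RPL35A. RPL35A had 103, 89.0 and 76.4 in DMSO and 82.8, 81.0 and 62.2 in SNDX-5613 libraries, so its groups overlapped and its lowest value was in the shallow library. The lowest limma adjusted p of the 3 was 0.56.

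RPS6, the small subunit protein that S6 kinases phosphorylate downstream of mTOR, had 134, 146 and 138 in DMSO and 154, 133 and 124 in SNDX-5613 libraries, a log2 difference of −0.03 ± 0.11 (SE). RPS3, which also has a role in DNA repair, differed by −0.01 ± 0.13, and RPS25, needed for initiation on some viral internal entry sites, by −0.04 ± 0.10. RPL22, which has a paralog that can replace it, differed by −0.02 ± 0.09. RPL38, known for its effect on translation of Hox mRNAs in the mouse embryo, differed by 0.13 ± 0.12, and RPS27A by 0.04 ± 0.11. All 6 had overlapping groups.

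Related genes were counted from lists of the same pathway. The 6 cytosolic ribosomal protein genes outside the symbol rule (such as RPL10, RPL36A, RPL39, RPS4X and FAU) all had a peak in all 6 libraries, with a median rank percentile of 56.1 and a median log2 difference of 0.05. Of 8 paralogs 5 had one, while RPL39L had a peak in 2 libraries, RPL10L in 1 and RPL3L, a paralog of striated muscle, in 0. Of 78 mitochondrial ribosomal protein genes 76 had a peak in all 6, MRPL23 and MRPL35 being the others. Their median rank percentile was 68.3 and their median log2 difference 0.01, close to the 70.0 and 0.02 of the cytosolic genes, and their median summit lay at −51.75 bp, where that of the cytosolic genes lay at −80 bp.

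All 17 translation factors and other genes with a TOP motif, all 26 ribosome biogenesis factors and all 12 genes of mTOR control of translation had a peak in all 6 libraries. Their median rank percentiles were 66.0, 74.2 and 71.5, and their median log2 differences were 0.03, 0.01 and −0.05. By limma 0 genes of any of these 6 lists passed the adjusted threshold in either direction, where 1.51% of all promoters did. At an unadjusted p under 0.05 the mitochondrial list had 7 of 76 (9.21%, against 11.4% of all promoters), and the other lists had at most 2 each.

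Ribosomal proteins also have many processed pseudogenes, copies made from the mRNA that lack the parent's promoter. Of 1492 pseudogenes named for these genes, 21 (1.41%) had a peak within 1 kb of their start in all 6 libraries and 1333 (89.3%) had none in any. Of the 1422 that lay more than 2 kb from the start of any gene counted above, 11 (0.774%) had one in all 6. The highest mean unscaled pileups among those 11 were 96.7 at RPL23AP49, 63.0 at RPL12P14 and 52.3 at RPS2P46, with the summit at 873, −619.5 and −411 bp from the start.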

How the data were processed

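The deposited files were 6 peak lists, with peaks called per library, and 2 consensus sets, of which only the regions were used. Per the labels, the authors' tools included Trim Galore 0.6.7, Bowtie2 2.3.4.1, Picard 2.20.0, SAMtools and MACS2, on hg38. Per the study's methods duplicates were marked with Picard. Whether they were then removed, and how reads that map to several places were handled, was not given in the sources used here. For each summit the authors deposited a ratio (fold enrichment of pileup over local background) and −log10 p and −log10 q values. Fold and p were solved for a whole pileup and its background. Read counts were not analysed here, so the authors' count model was not fitted.

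A promoter value was the pileup of the strongest summit within 1 kb of the start of the GENCODE release 44 canonical transcript. It was divided by the library's median ratio over 11751 promoters and tested on the log2 scale, with no pseudocount, by limma 3.58.1 (two-sided, intensity trend, Benjamini-Hochberg, R 4.3.3) across all of them. The filter on a peak in all 6 libraries kept all 73 members. Other steps used Python 3.11.15, and the scripts were tested on simulated data.

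The members, gene lists, marker lists and naming rule were chosen with earlier results of these data known. Genes were named if they had the 5 largest differences in either direction among genes with separate groups, the 5 highest or lowest mean rank percentiles, or a fixed role. RPL18, RPL28 and others outside it were named after their values were seen. Single values of some listed genes are not reported here, while counts and medians include them. Alternatives changed the start, window, threshold, scaling, measure, filter, weights, trend, replicate block and libraries. No Tn5 shift is stated, which has little bearing on windows of this size. Intervals cover the spread between libraries only.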

Additional observations from a re-analysis of the deposited data

How the results depend on the processing

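All 73 ribosomal protein promoters had a peak in every library with the narrower window, the stricter threshold and equal numbers of summits. With the gene's outermost 5′ end as start, 69 had one. Leaving out 1 library could not lower the count, since all 73 had a peak in all 6 libraries. By limma 0 members passed the threshold in either direction under 16 of 17 alternatives. With array weights 1 of 73 was higher (RPL31), where 280 of all 11751 promoters were. The SNDX-5613 replicate 3 weight was 0.311, against 0.836 to 1.73 for the others. The count of higher members with separate groups, 6, became 1 with scaling by genome background (2.61% of all promoters) and 1 with scaling by distal sites (4.43%). It was 1 with the authors' fold (7.40%) and 3 with rank percentiles (6.02%). It was 10 to 12 with 1 library left out (at most 14.8%, and 13.9% without SNDX-5613 replicate 3). The count of lower members, 1, became 7 (16.7% of all promoters) and 4 (19.04%) with the same scalings. It was 2 to 5 with 1 library left out (11.6% to 14.2%). The median log2 difference of the members, 0.02, moved to −0.124 with background scaling, −0.0818 with distal scaling and 0.0347 with summed summits, and it was 0.0225 to 0.0426 with 1 library left out. Beyond the construction of each scaling, the cause was not tested.

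Over all promoters the limma calls, 169 higher and 9 lower, varied more. They were 120 and 94 with background scaling, 119 and 24 with distal scaling, 280 and 45 with array weights, 8 and 0 with summed summits, 11 and 0 without the lowest 25% of levels, 0 and 0 with the authors' fold, 233 and 16 without the trend, and 91 to 288 and 1 to 49 with 1 library left out. With the replicate number as a block there were 164 and 15, and the members had 0 in both directions. The correlations of the deviations of same-numbered libraries were 0.01, −0.02 and 0.02, so these data do not show that the numbers pair the libraries. The study's text describes dishes divided between the treatments, but no label ties them to the numbers. The shallow SNDX-5613 replicate 3 (pileups of 14 to 65 at the members) sets the limit on depth.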
